A study of Mus musculus with 3 samples.

Results

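Zinc transporters and metallothioneins were followed through the cell types of mouse pancreatic islets. The set holds 9 genes, listed by name under a rule that uses no measured value, although it was proposed with earlier results of these data known, of 15741 genes common to both deposited tables, and all 9 were listed in each table. Slc30a8, Slc30a5, Slc30a7 and Slc30a1 belong to the ZnT family, which moves zinc out of the cytosol into organelles or out of the cell. Slc39a14, Slc39a8 and Slc39a6 belong to the ZIP family, which moves zinc, and for some members also iron or manganese, into the cytosol. Mt1 and Mt2 encode metallothioneins, small cysteine-rich proteins that bind zinc and copper.

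Beta cells store insulin in granules as crystals with zinc, and Slc30a8 (ZnT8) is the transporter known for loading zinc into those granules. Metallothionein genes and Slc30a1 are textbook targets of the zinc-sensing transcription factor MTF1, which binds metal response elements in their promoters. Metallothionein transcription also answers to glucocorticoids and to cell stress.

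Single-cell RNA was counted with the 10x Genomics 3' system, which tags each captured RNA molecule with a unique molecular identifier (UMI). All 3 samples form 1 group: islet cells of Ngn3-CreERT:R26-CAG-TdTomato mice, 10 days after tamoxifen, from 6 mice in all. The first allele places a tamoxifen-dependent Cre recombinase under Ngn3 (Neurog3), the endocrine progenitor factor, and the second is a red reporter at the ROSA26 locus that Cre switches on under the CAG promoter. Every cell shares both alleles and tamoxifen, there is no untreated or Cre-free sample, and the labels give 2 pooled mice for each of replicates 2 and 3. The comparisons below are therefore between cell types within these islets, and any effect of tamoxifen or of the alleles cannot be told apart from the cell types' usual state.

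Replicate 1, called library 1, held 1146 cells and 27474046 UMIs, and the joint table of replicates 2 and 3 held 13042 distinct cells and 196833349 UMIs. No label separates replicates 2 and 3, so n = 2 tables, and the joint table's 3 barcode blocks serve for values only. At most 6 cell barcodes were shared between any 2 blocks, and at most 5 between library 1 and a block. After filtering, 859 and 11449 cells were kept. The sample labels name Ngn3-expressing cells, yet a Neurog3 UMI was found in 33 of the 859 kept cells (3.84%) and in 311 of the 11449 (2.72%). Endocrine cells were defined by 1 hormone: insulin (Ins1 plus Ins2) at 3000 or more, or Gcg, Sst or Ppy at 200 or more, per 10000 UMIs. This gave 470 and 7190 beta cells, 104 and 937 alpha cells, 25 and 232 delta cells, and 18 and 254 PP cells in library 1 and the joint table. Cells over 2 or more hormone limits (100 and 1213) were kept apart, and no doublet caller was run. Cells under every limit were sorted by marker genes into endothelial-like (28 and 770), myeloid-like (45 and 353) and stromal-like (40 and 229) cells, called endothelial, myeloid and stromal below. Cells that matched the Schwann (2 and 36), B (0 and 70), T or NK (2 and 8) and duct (1 and 11) lists had under 10 cells in library 1 and were not tested, and 24 and 146 cells stayed unclassified. The 6 acinar genes, which no islet cell type should express, summed to 0.312 to 2.15 per 10000 over the 7 classes of library 1 and to 6.62 to 16.1 over those of the joint table. The 10 endothelial markers summed to 198 per 10000 in endothelial cells of library 1 and to 0.140 in its beta cells.

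Levels are summed UMIs per 10000 summed non-hormone UMIs of a class, leaving out the 5 hormone genes, which take up most of a beta cell's RNA. Ranges in brackets are exact 95% Poisson intervals, which cover counting error only. Tests compare class sums with limma on log2 values, relative to the median gene, with Benjamini-Hochberg adjustment over 11773 genes. Of the 9 members, 8 passed the filter on low levels, and Slc39a8 did not.

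The promoters of Mt2, Mt1 and Slc30a1 are shown because these are the textbook MTF1 targets in the set. By the GENCODE annotation on GRCm38 (mm10), Mt2 lies at chr8:94172664-94173568 and Mt1 at chr8:94179082-94180327, both on the + strand, with 5513 bases from the end of Mt2 to the start of Mt1. Slc30a1 lies at chr1:191906767-191913247 on the + strand. The 250 bases before each RefSeq start (GRCm38.p6, + strand, 5′ to 3′) are given with matches to the metal response element core in capitals, searched as TGCACNC and TGCGCNC on both strands. The windows are chr8:94172368-94172617, chr8:94178839-94179088 and chr1:191906531-191906780.
Mt2: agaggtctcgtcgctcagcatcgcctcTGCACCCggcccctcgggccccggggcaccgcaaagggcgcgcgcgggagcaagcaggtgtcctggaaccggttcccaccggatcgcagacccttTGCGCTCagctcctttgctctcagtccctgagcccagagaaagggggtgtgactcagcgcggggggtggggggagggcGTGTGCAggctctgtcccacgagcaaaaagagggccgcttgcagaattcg
Mt1: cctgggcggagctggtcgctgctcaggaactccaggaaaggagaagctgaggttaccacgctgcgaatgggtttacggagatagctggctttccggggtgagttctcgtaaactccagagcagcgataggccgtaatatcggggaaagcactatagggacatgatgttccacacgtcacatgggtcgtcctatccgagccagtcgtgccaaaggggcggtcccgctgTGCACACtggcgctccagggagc
Slc30a1: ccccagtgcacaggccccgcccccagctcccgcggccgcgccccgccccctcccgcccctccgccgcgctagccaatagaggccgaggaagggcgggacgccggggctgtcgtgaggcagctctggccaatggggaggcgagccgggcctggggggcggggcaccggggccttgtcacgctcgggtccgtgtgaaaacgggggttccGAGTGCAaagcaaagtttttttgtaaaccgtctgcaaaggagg

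Within these windows Mt2 held 3 matches and Mt1 and Slc30a1 held 1 each. Bases downstream of the RefSeq start were not searched, so each count depends on where that start was placed. The Mt1 window ends at 94179088, past the GENCODE start at 94179082, and the Slc30a1 window at 191906780, past its start at 191906767. The Mt2 window ends at 94172617, before its GENCODE start at 94172664. The 3 counts thus cover different stretches relative to these starts, and none need cover the whole promoter. Of 32841 RefSeq promoter windows of the same length, 21.4% held at least 1 match and 1.26% held 3 or more. Promoter windows were found for 6 of the 9 members, and of the others Slc30a5 held 1 match, Slc30a7 held 0, and the 2 windows of Slc39a8 held 0 and 1. A match is a description of the letters and not a binding site.

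Slc30a8 (chr15:52295553-52335798, + strand), the granule zinc transporter, had its highest levels in beta cells, then alpha cells, with delta and PP cells far lower. In beta cells its level was 12.6 (12.3 to 12.9) in library 1 and 11.0 in each of the 3 blocks. In alpha cells it was 8.25 (7.68 to 8.85) in library 1 and 7.86, 8.67 and 8.85 in the blocks. In delta cells it was 1.45 (1.01 to 2.01) in library 1 and 1.57, 1.79 and 1.59 in the blocks. On this scale every alpha value lay below every beta value and above every delta value. Per 10000 of all UMIs, hormones included, the order of beta and alpha cells turned, with beta cells at 4.42, 3.64, 3.60 and 3.84 and alpha cells at 5.36, 5.18, 5.66 and 5.94 in library 1 and the blocks. PP cells, which make pancreatic polypeptide, stood at 1.43 in library 1 and at 1.24, 1.08 and 2.12 in the blocks, a range that overlapped that of delta cells.

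Between beta and delta cells Slc30a8 differed by 2.98 on the log2 scale (SE 0.57, n = 2 tables, adjusted p = 0.00578 by limma), and between alpha and delta cells by 2.55 (SE 0.57, adjusted p = 0.0197 by limma). Between beta and PP cells it differed by 2.72 (SE 0.57, adjusted p = 0.0120 by limma). Beta and alpha cells, neighbours in this order, differed by 0.44 (SE 0.57, adjusted p = 0.848 by limma), with both tables higher in beta (0.50 and 0.37). In a fit restricted to the 4 endocrine classes, chosen after the first fit was seen, that difference was 0.43 with an adjusted p of 0.0391 by limma. Alpha against PP cells gave 2.28 (adjusted p = 0.0953 by limma), which passed the threshold under 6 of 16 alternatives. The alpha-to-delta call was lost under 3 of 16 alternatives, and the beta-to-PP call only with a smaller constant added before the log.

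**Figure D1:**
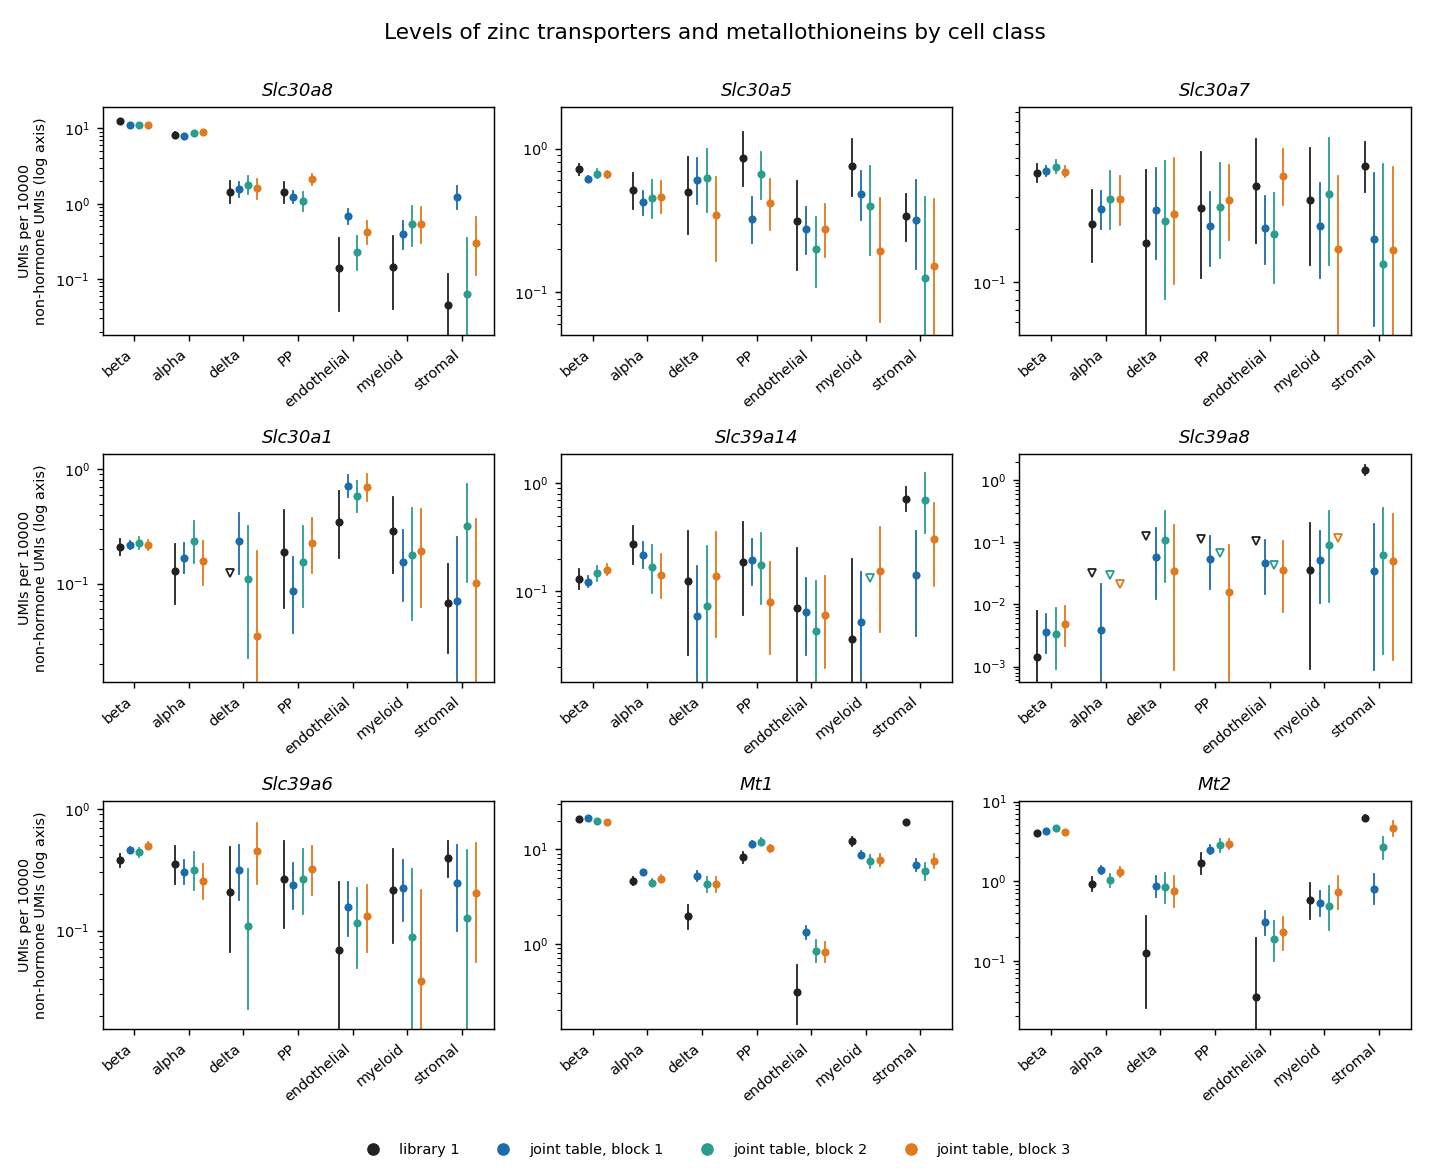
Levels of the 9 members in 7 cell classes, as UMIs per 10000 non-hormone UMIs on log axes that differ between panels. Points are library 1 and the 3 barcode blocks of the joint table, bars are exact 95% Poisson intervals, and open triangles mark a count of 0 at the level 3 UMIs would give. The points of Slc30a8 lie highest in beta and alpha cells, and those of Mt1 in beta cells, with the stromal cells of library 1 just below them.

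Cells that passed 2 hormone limits were set apart, and 2 of these groups are given. Cells with glucagon and pancreatic polypeptide stood at 5.58 (4.91 to 6.32) in library 1 and at 5.74 (5.41 to 6.09) in the other table, between alpha and PP cells. Cells with somatostatin and pancreatic polypeptide, more numerous (42 and 369) than delta cells with somatostatin alone, stood at 0.277 (0.138 to 0.495) and 0.889 (0.764 to 1.03). These double cells lay below both delta and PP cells in each table. In delta cells of library 1 a single cell carried 42.9% of the 35 Slc30a8 UMIs, and in PP cells of that library 1 cell carried 23.7% of 38.

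In non-endocrine cells Slc30a8 was low, and it is given there beside insulin, whose RNA these cells should lack. Endothelial cells held 0.139 (0.0378 to 0.355) in library 1, and those of the other table held 0.480 (0.400 to 0.572). Myeloid cells held 0.144 and 0.459, and stromal cells 0.0451 and 0.657. In the joint table a single cell of the mural type (Pdgfrb, Rgs5, Acta2 and Notch3 markers) carried 51.5% of that type's Slc30a8 UMIs, and the stromal value of block 1, 1.23, took 48.6% of its UMIs from 1 cell. Per 10000 insulin UMIs, Slc30a8 stood at 6.82 and 5.57 in beta cells of the 2 tables, and in the joint table at 5.06 (4.21 to 6.02) in endothelial, 4.18 (3.10 to 5.53) in myeloid and 5.25 (3.79 to 7.10) in stromal cells. The ratios of endothelial and stromal cells thus covered that of beta cells within counting error, and that of myeloid cells ended just below it. Delta and PP cells were above it, at 13.1 (11.3 to 15.2) and 15.3 (13.6 to 17.1) in the joint table and at 40.9 and 30.2 in library 1. The part of free RNA in these levels was not tested.

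At a fixed depth of 1000 non-hormone UMIs per cell, taken as the mean over all possible draws, a Slc30a8 UMI was found in 65.8% of 7138 beta and 54.8% of 930 alpha cells of the joint table. The shares were 9.92% (6.50 to 14.8) of 228 delta cells and 11.8% (8.11 to 16.4) of 254 PP cells, against 4.98% (3.57 to 6.82) of 758 endothelial cells. The brackets are Clopper-Pearson intervals, which are approximate for a mean over draws. Without thinning the shares were 98.1% of beta cells at a median of 6731 non-hormone UMIs and 12.1% of endothelial cells at a median of 2622.5. On these limits the PP share lay above the endothelial share, and the interval of the delta share began just below the upper end of the endothelial one. The part of free RNA in these shares was not tested.

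**Figure D2:**
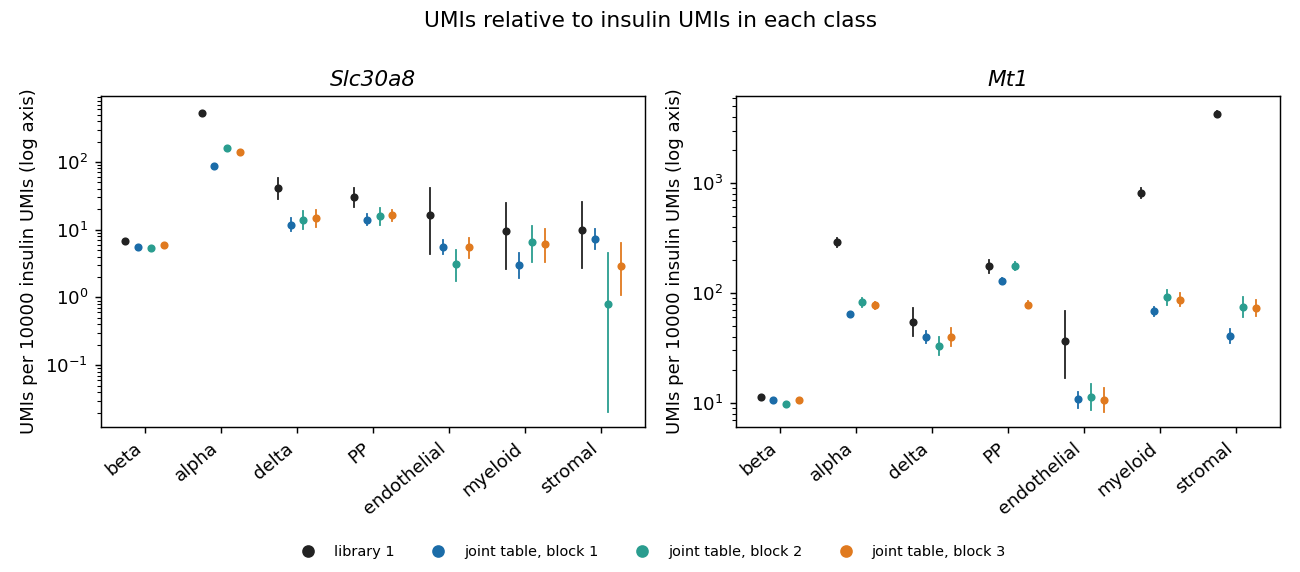
UMIs of Slc30a8 and Mt1 per 10000 insulin UMIs in each class, on log axes, for library 1 and the 3 blocks, with exact 95% Poisson intervals. The intervals of endothelial cells in the joint blocks cover or come close to the beta values for both genes, while Mt1 in myeloid and stromal cells lies above beta cells in every table and block.

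The 2 metallothionein genes were highest in beta cells among the endocrine classes. Mt1 stood at 20.8 (20.5 to 21.2) in beta cells of library 1 and at 21.4, 19.97 and 19.7 in the blocks. Alpha cells held 4.59 in library 1 and 5.78, 4.45 and 4.91 in the blocks, and delta cells 1.95 and 5.23, 4.25 and 4.30. PP cells held 8.25 and 11.5, 12.0 and 10.2, between beta cells and the other endocrine classes, although 1 cell carried 43.6% of the PP UMIs of library 1. No alpha, delta or PP value of Mt1 reached any beta value on this scale. Per 10000 of all UMIs, PP cells came close to beta cells, at 5.29, 6.27, 6.73 and 5.62 against 7.31, 7.09, 6.52 and 6.86, and were above them in block 2.

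Mt1 was higher in beta than in alpha cells by 1.99 on the log2 scale (SE 0.54, n = 2 tables, adjusted p = 0.0368 by limma), a call that 5 of 16 alternatives lost with differences from 1.73 to 2.06. It was the only one of the 8 members tested that passed there, where 9.28% of all genes were called. Against delta cells Mt1 was higher by 2.83 (SE 0.54, adjusted p = 0.00583 by limma) and Mt2 by 3.53 (SE 0.63, adjusted p = 0.00373 by limma). With Slc30a8 these made 3 of 8 members higher in beta than in delta cells, where 8.32% of all genes were called and 4.51% were higher in beta, and all 3 calls held under 16 of 16 alternatives. The median difference of the members was 1.24, against 0.09 over all genes.

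Mt2 followed Mt1 at a lower level. It stood at 4.05 and 4.35 in beta cells of the 2 tables, 0.927 and 1.29 in alpha cells, 0.124 and 0.830 in delta cells, and 1.69 and 2.70 in PP cells. Per 10000 of all UMIs, Mt2 stood at 1.42 and 1.46 in beta and at 1.08 and 1.48 in PP cells. Its beta-to-alpha difference of 1.82 (SE 0.63) had an adjusted p of 0.106 by limma. Library 1 held only 3 Mt2 UMIs in its 25 delta cells, so its delta value was 0.124 (0.0256 to 0.363). Mt2 was lower in delta than in PP cells by 2.83 (SE 0.63, adjusted p = 0.0333 by limma), where 2.73% of genes were called, and 9 of 16 alternatives lost that call. Of 8 members, 1 (Slc30a8) was called between alpha and delta cells, where 5.45% of genes were, and 1 (Slc30a8) between beta and PP cells, where 7.09% were. Between alpha and PP cells limma called 0 of 8, where 1.19% of genes were called. There 1 member, Slc30a8, had an unadjusted p under 0.05 by limma, edgeR called 1 with either of its scalings, and DESeq2 called 0.

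**Figure D3:**
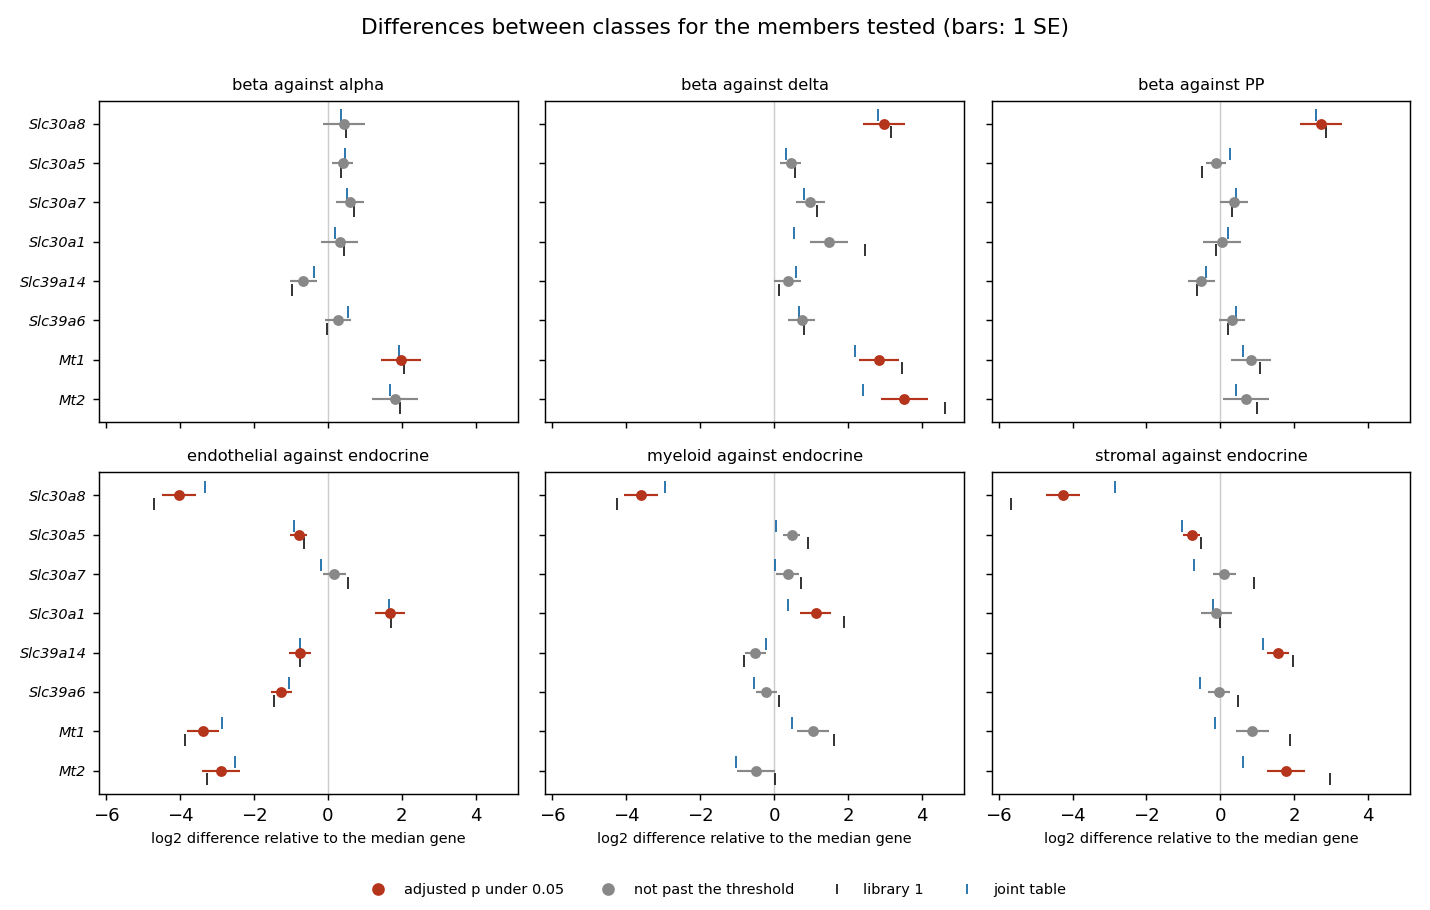
Differences between classes on the log2 scale for the 8 members tested, with bars of 1 SE, and ticks for library 1 and the joint table alone. Slc30a8, Mt1 and Mt2 lie to the right for beta against delta cells, and Slc30a1 lies to the right and 6 members to the left for endothelial cells.

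Outside the endocrine classes the metallothioneins split. Among the 7 classes tested, endothelial cells held the least Mt1, at 0.312 (0.143 to 0.593) in library 1 and at 1.03 (0.914 to 1.16) in the joint one, lower than the mean of beta, alpha and delta cells by 3.38 (SE 0.44, adjusted p = 3.93e-05 by limma). Per 10000 insulin UMIs, Mt1 of endothelial cells in the joint table was 10.9 (9.62 to 12.3), against 10.4 (10.3 to 10.5) in beta cells, so the ratio did not differ beyond counting error there. In library 1 it was 36.5 (16.7 to 69.2) on 9 Mt1 UMIs in endothelial cells, against 11.3 (11.1 to 11.5) in beta cells. Myeloid cells held 12.2 (10.9 to 13.5) and 8.29 (7.75 to 8.85) per 10000 non-hormone UMIs. Per 10000 insulin UMIs their Mt1 was 814 and 75.5, far above the ratio in beta cells. Against the endocrine mean, Mt1 in myeloid cells differed by 1.06 (SE 0.44, adjusted p = 0.0614 by limma), and edgeR called it with either scaling (0.92 and 1.03). Outside the classes tested, the 36 Schwann-like cells of the joint table held 15.2 (12.4 to 18.4) of Mt1, above its myeloid and stromal cells, and the 70 B-like cells held 0.943 (0.636 to 1.35), near its endothelial cells.

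Mt1 and Mt2 came in different proportions by cell type. The 3' system tags molecules, so UMIs of these 2 genes can be set against each other without a correction for length. Mt2 made up 16.3% (15.7 to 16.8) of the UMIs of both genes in beta cells of library 1 and 17.5% (17.3 to 17.7) in the joint table. In myeloid cells it made up 4.53% (2.61 to 7.26) and 6.46% (4.97 to 8.21), below beta cells beyond counting error in each table. In stromal cells the share was 24.2% (22.5 to 26.1) and 26.5% (23.0 to 30.2). Blocks of the joint table gave 10.6%, 31.3% and 38.1% for stromal cells, so the higher stromal share did not hold in block 1. The class was mixed. In the joint table its 79 cells with more collagen, Dcn, Lum and Pdgfra markers held 283 Mt1 and 142 Mt2 UMIs. Its 148 cells of mural type held 147 and 14, so the higher share was not seen in the mural type. A single cell carried 73.8% of the 42 stromal Mt2 UMIs of block 2, and 1 cell carried 44.0% of the 91 of block 3. These shares are described with counting intervals and were not tested over tables.

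**Figure D4:**
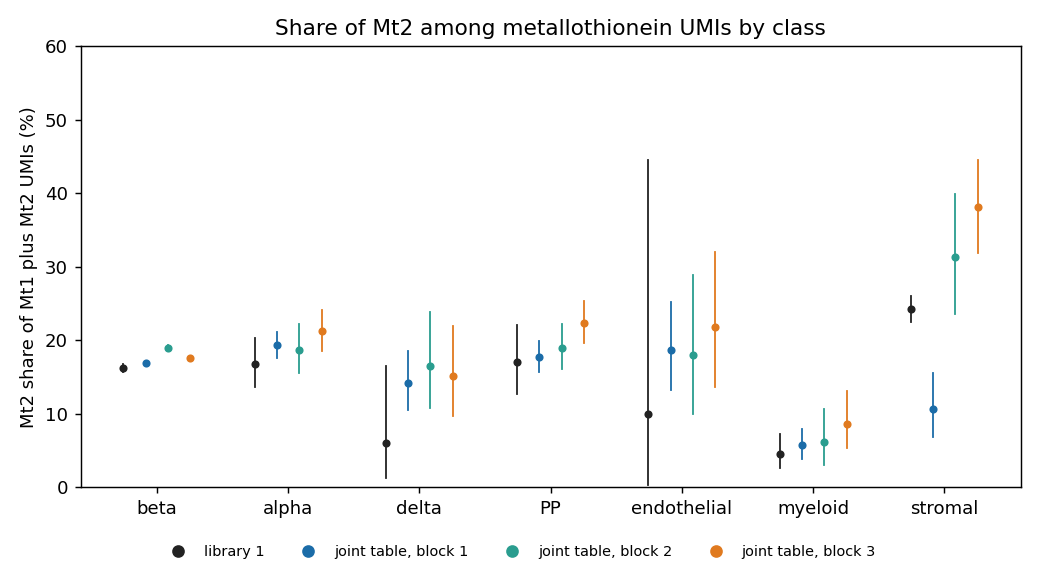
Mt2 as a percentage of Mt1 plus Mt2 UMIs by class, for library 1 and the 3 blocks, with exact 95% binomial intervals. Myeloid cells lie below beta cells in library 1 and in every block, and stromal cells range from 10.6% to 38.1%.

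Stromal cells were uneven between the tables for the metallothioneins, Slc39a14 and Slc39a8. Their Mt1 was 19.3 in library 1 against 6.77 in the joint table, and their Mt2 was 6.18 against 2.44. Mt2 was higher than the endocrine mean by 1.79 (SE 0.51, adjusted p = 0.0128 by limma) and Slc39a14, a carrier of zinc, iron and manganese, by 1.56 (SE 0.29, adjusted p = 8.13e-04 by limma). In these cells Mt1 differed by 0.87 (SE 0.44, adjusted p = 0.128 by limma), with opposite directions in library 1 (1.89) and the joint table (-0.15), while edgeR called it (1.06 and 1.14). The limma calls of Mt2 and Slc39a14 were lost when cells were averaged with equal weight (0.77 and 0.63) and when the 5% of cells richest in UMIs were left out (0.95 and 0.74). In library 1 the cells with more collagen, Dcn, Lum and Pdgfra markers (28 cells, median 27588.5 non-hormone UMIs) carried 64 of the 64 Slc39a14 UMIs and 1706 of the 1712 Mt1 UMIs. The 12 cells of mural type there had a median of 3888 and held Mt1 at 0.976, against 20.7 in the collagen-type cells. In the joint table mural cells outnumbered collagen-type cells, 148 to 79. Mural cells held Mt2 there at 0.479 (0.262 to 0.804), a lower level than in beta, alpha and delta cells. Collagen-type cells held 4.12 (3.47 to 4.86). The Mt2 call thus describes a mixed class, and its types were not tested apart. Mt1 there was 5.03 in mural and 8.22 in collagen-type cells, so the tables also differed within each type.

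Slc39a8, a carrier of zinc and manganese, was highest in library 1, in those collagen-type cells and in the unclassified cells (1.35, with 15 UMIs in 24 cells). The collagen-type cells held 131 UMIs, in 13 of 28 cells, with 29.8% of them in 1 cell. The level over all stromal cells was 1.48 (1.24 to 1.75) in library 1. It was 0.0469 (0.00968 to 0.137) in the joint table, where 79 collagen-type cells at a median of 2465 non-hormone UMIs held 2 UMIs. Beta cells of the 2 tables had 1 and 21 UMIs, and alpha cells 0 and 1. In the joint table delta cells had 7 UMIs at 0.0653 (0.0262 to 0.134) and PP cells 6 at 0.0300 (0.0110 to 0.0654), above its beta cells at 0.00398 (0.00246 to 0.00608) beyond counting error. Library 1 held 0 in both, with limits at 3 UMIs of 0.124 and 0.113. The higher level was not particular to delta and PP cells. In the joint table endothelial cells at 0.0305 (0.0132 to 0.0601) and myeloid cells at 0.0469 (0.0152 to 0.109) were also above its beta cells, all on few UMIs. The difference between the tables for stromal cells was larger than counting error and was not tested.

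Slc30a1 (ZnT1), which exports zinc across the plasma membrane, was highest in endothelial cells, which held the least Mt1 and Mt2 of the 7 classes tested. It stood at 0.347 (0.166 to 0.638) in endothelial cells of library 1 and 0.675 (0.579 to 0.782) in the joint table, against 0.210 and 0.220 in beta, 0.128 and 0.179 in alpha, and 0 and 0.149 in delta cells. For the 0 UMIs in delta cells of library 1, the limit at 3 UMIs is 0.124. The endothelial difference from the endocrine mean was 1.69 (SE 0.42, adjusted p = 0.00452 by limma), with 1.71 and 1.67 in the 2 tables, and it passed under all 15 alternatives. The library 1 value rests in part on its delta cells, whose 0 UMIs enter the mean at the constant added before the log. Against beta cells alone (0.178 to 0.247) the endothelial interval of library 1 overlapped, as it did against myeloid cells at 0.289 (0.125 to 0.569). Mt2 in endothelial cells of library 1 rested on 1 UMI, at 0.0347 (0.000878 to 0.193), and overlapped delta cells at 0.124 (0.0256 to 0.363). At 1000 non-hormone UMIs per cell, 6.16% (4.59 to 8.16) of endothelial and 2.22% (1.90 to 2.60) of beta cells in the joint table held a Slc30a1 UMI. Without thinning the shares were 18.6% and 14.3%, at medians of 2622.5 and 6731.

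In all, 7 of 8 members were called in endothelial cells, 1 higher and 6 lower, where 51.1% of genes were called (24.7% higher and 26.4% lower), and the median of the members was -1.02 against 0.00112 over all genes. Slc39a6 was lower by 1.25 (SE 0.29, adjusted p = 0.00327 by limma) and Slc30a5 by 0.78 (SE 0.23, adjusted p = 0.0124 by limma). The call of Slc39a14 (adjusted p = 0.0490 by limma) was lost under 9 of 15 alternatives. In myeloid cells 2 members were called, where 53.4% of genes were: Slc30a8, lower by 3.61 (SE 0.46, adjusted p = 3.24e-05 by limma), and Slc30a1, higher by 1.13 (SE 0.42, adjusted p = 0.0363 by limma). The second was lost under 8 of 15 alternatives and was 1.89 in library 1 and 0.37 in the joint table. Its levels in myeloid cells were 0.289 and 0.169, and in the joint table that lay below beta and alpha cells. In stromal cells 4 members were called, where 46.1% of genes were, with Slc30a8 lower by 4.26 (SE 0.46, adjusted p = 1.09e-05 by limma) and Slc30a5 lower by 0.78 (SE 0.23, adjusted p = 0.0148 by limma).

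The remaining carriers were broad. Slc30a5 and Slc30a7, which load zinc into the secretory pathway, and Slc39a6, a plasma membrane importer, had UMIs in every main class of both tables. Slc30a5 stood at 0.719 and 0.642 in beta, 0.512 and 0.440 in alpha, and 0.497 and 0.541 in delta cells. Beta cells held 0.410 and 0.426 of Slc30a7, and alpha cells 0.213 and 0.275. For Slc39a6 the levels were 0.379 and 0.469 in beta cells, against 0.352 and 0.293 in alpha cells. None of the 3 was called between beta, alpha, delta and PP cells by limma over all classes, and edgeR and DESeq2 called 0 of them there. Only Slc30a7 between beta and delta cells had an unadjusted p under 0.05 by limma (difference 0.99, SE 0.38, adjusted p = 0.158 by limma). That difference passed the threshold under 1 of 16 alternatives. Slc39a14 stood lower in beta cells (0.131 and 0.140) than in alpha cells (0.277 and 0.187), a difference that did not hold in block 3 (0.159 and 0.143) and came to -0.66 (SE 0.36, adjusted p = 0.386 by limma).

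Within beta cells Mt1 varied far more from cell to cell than Slc30a8. At 1000 non-hormone UMIs, the variance of Mt1 over its mean was 2.41 in library 1 and 3.35, 3.03 and 3.03 in the blocks. For Slc30a8 the same ratio was 1.09, 1.09, 1.10 and 1.09, close to the value of 1 that counting alone gives. Mt1 and Mt2 moved together over beta cells, with a Spearman correlation of 0.792 over 470 cells of library 1 and 0.734, 0.749 and 0.728 over 3260, 1606 and 2324 cells of the blocks. With Mt1 over the same cells, Slc30a1 gave small values of 0.085 in library 1 and 0.089, 0.124 and 0.091 in the blocks. Slc30a8 gave 0.029 and 0.068, 0.086 and 0.119. Cells of 1 library share its depth and free RNA, so these are descriptions.

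Beta cells were ranked by Mt1 and the highest 25% set against the lowest 25%, so Mt1 itself is no result there. Mt2 stood at 8.59, 10.2, 11.1 and 9.89 in the highest cells of library 1 and the blocks, and at 0.739, 0.637, 0.632 and 0.712 in the lowest. Slc30a1 stood at 0.285, 0.273, 0.336 and 0.320 in the highest and at 0.159, 0.155, 0.124 and 0.165 in the lowest, higher in all 4. Its counting intervals were apart in the 3 blocks and overlapped in library 1 (0.209 to 0.379 against 0.108 to 0.228). Slc30a8 moved less, from 11.9, 10.2, 10.3 and 9.89 to 12.6, 11.3, 11.6 and 11.7. Txnip, a glucose-induced inhibitor of thioredoxin, was picked after its values were seen. It was lower in the highest cells, at 3.39, 2.44, 2.46 and 2.58 against 5.91, 4.97, 4.30 and 5.23. The median mitochondrial share was higher in them, at 4.57%, 5.13%, 5.16% and 5.80% against 3.65%, 2.80%, 2.81% and 3.36%, and the median depth lower, at 13033, 6885, 6203 and 6044 non-hormone UMIs against 14281.5, 7422, 7288.5 and 6953. The part of depth and mitochondrial RNA in these differences was not tested.

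**Figure D5:**
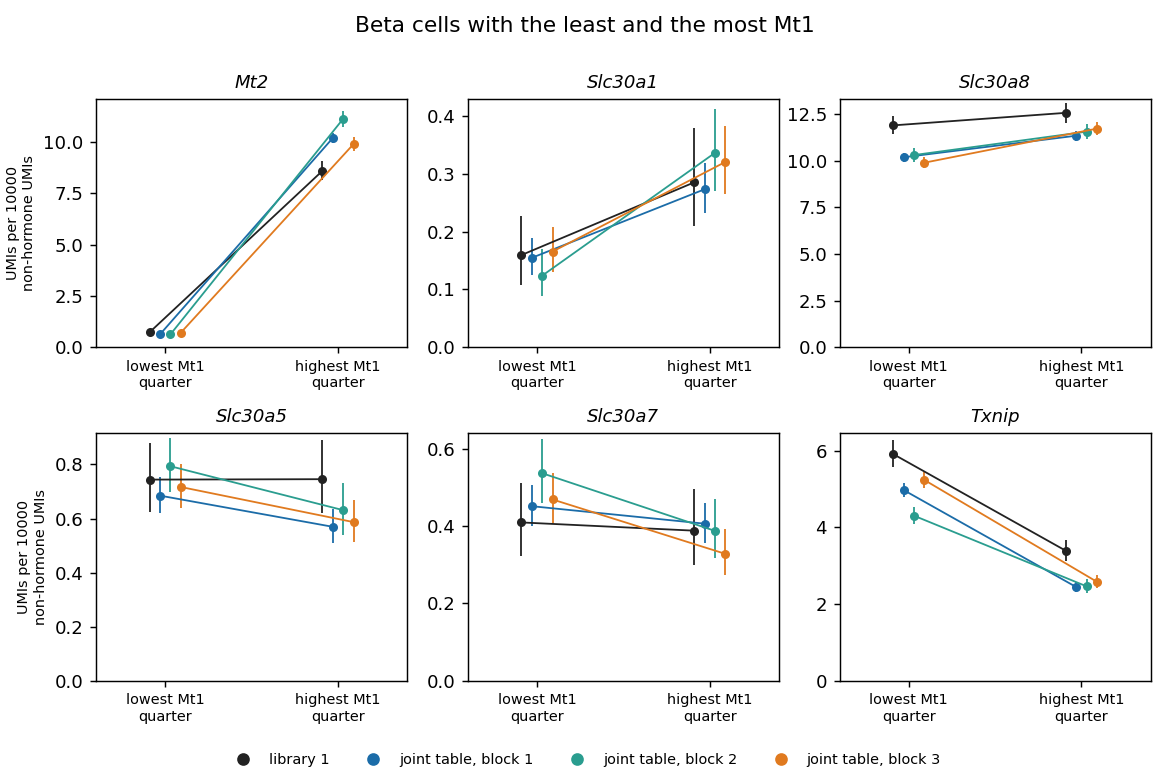
Levels of 6 genes in beta cells with the lowest and the highest Mt1, 25% of cells each, as UMIs per 10000 non-hormone UMIs with exact 95% Poisson intervals, for library 1 and the 3 blocks. Mt2 and Slc30a1 are higher and Txnip, picked after its values were seen, is lower in the cells with the most Mt1, in library 1 and in every block.

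Of 20 other genes of zinc handling, 12 could be tested. Between beta and alpha cells Mt3, another metallothionein, was higher in beta by 1.38 (adjusted p = 0.0187 by limma), and Slc39a11, a ZIP carrier, was lower by 1.26 (adjusted p = 0.0170 by limma), while the other 10 were not called. In that comparison 9.28% of all genes were called. Mt3 was low everywhere, with 51 and 644 UMIs in beta cells (levels 0.0719 and 0.122) and 0 and 3 UMIs in alpha cells of the 2 tables, so the size of its difference depends on the constant added before the log. Mt3 was also lower in alpha than in delta cells by 1.29 (adjusted p = 0.0419 by limma), on 4 and 5 UMIs in delta cells, a call that edgeR with either scaling and DESeq2 did not make. Between beta and delta cells, where 8.32% of all genes were called, limma called 0 of the 12. At an unadjusted p under 0.05 limma gave 2, and edgeR and DESeq2 called 0. Slc39a1, a plasma membrane importer, was higher than the endocrine mean in endothelial, myeloid and stromal cells by 1.52, 2.52 and 2.58 (adjusted p = 6.66e-04, 1.04e-05 and 1.18e-05 by limma). Slc39a10, also of the ZIP family, was higher in endothelial cells by 1.31 (adjusted p = 6.18e-04 by limma) and in stromal cells by 0.88 (adjusted p = 0.0103 by limma). Slc39a7, which releases zinc from the endoplasmic reticulum, was lower in endothelial cells by 1.42 (adjusted p = 5.76e-04 by limma) and in myeloid cells by 0.69 (adjusted p = 0.0397 by limma). Slc30a4 was lower in myeloid cells by 1.27 (adjusted p = 0.00137 by limma). Slc39a11 was lower in endothelial cells by 1.14 (adjusted p = 0.00167 by limma), and Slc30a9 in stromal cells by 0.80 (adjusted p = 0.00675 by limma). Mtf1, the zinc sensor, was lower in stromal cells by 1.35 (adjusted p = 0.00200 by limma). In all, 2 of the 12 were higher and 4 lower in endothelial cells, 1 higher and 2 lower in myeloid cells, and 3 higher and 3 lower in stromal cells. Over all genes the shares called were 51.1% in endothelial, 53.4% in myeloid and 46.1% in stromal cells, so none of these counts stands out as high. Called there and not given above were Mt3 and Slc30a9, lower in endothelial cells, Mt3, lower in stromal cells, and Slc30a6, higher in stromal cells. The medians of these 12 genes lay between -0.35 and 0.35 over all 9 comparisons.

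Genes of other signals known to act on metallothioneins were counted beside them. Of 5 glucocorticoid response genes tested, limma called 0 between beta, alpha, delta and PP cells. At an unadjusted p under 0.05 it gave 1 each for alpha against delta, beta against PP and delta against PP, edgeR with the DESeq2 size factors called 1 for beta against alpha, and edgeR with TMM and DESeq2 called 0. Against the endocrine mean limma called 3 of the 5 higher and 1 lower in endothelial cells, 2 higher and 2 lower in myeloid cells, and 2 higher and 1 lower in stromal cells. Of all genes, 51.1%, 53.4% and 46.1% were called in endothelial, myeloid and stromal cells. Sgk1, a kinase induced by glucocorticoids, was higher by 6.71 in endothelial and 5.63 in myeloid cells (adjusted p = 1.52e-07 and 5.57e-07 by limma). Of 8 immediate early genes, 7 were lower in beta than in alpha cells, 5 lower than in delta cells and 6 lower than in PP cells by limma, with median differences of -1.24, -0.79 and -1.25. The shares called over all genes there were 9.28%, 8.32% and 7.09%. Of 9 iron and copper genes, 1 was higher in beta than in alpha cells and 2 higher than in delta cells, among them Ftl1, the ferritin light chain, by 1.40 (adjusted p = 2.83e-04 by limma) and 1.39 (adjusted p = 3.20e-04 by limma). Of all genes 9.28% and 8.32% were called in these comparisons, and edgeR called 5 of the 9 with either scaling and DESeq2 3 between beta and alpha cells.

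The genes whose pattern over 28 class columns was most like that of Slc30a8, by Pearson's r of log2 levels among 12572 genes, were C2cd4b (0.959), Skap1 (0.939), Nell1 (0.939), 9330182L06Rik (0.934) and Neurod1 (0.925). For Mt1 they were Cd63 (0.880), Serp1 (0.878), Mt2 (0.865), Sgpl1 (0.808) and Gabarap (0.798). Slc30a1 ran against Mt1 over these columns (r = -0.34), while over beta cells its correlation with Mt1 was positive but weak.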

How the data were processed

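The authors deposited replicate 1 as raw UMI counts, and replicates 2 and 3 as 1 joint table whose values are the natural log of 1 plus UMIs per 10000 of the cell. Per the submitters' processing notes, Cell Ranger 3.2.0 or 5.0.0, cutadapt 2.5, FastQC 0.11.8, Seurat 4.0.0 and the mm10 build were used. Whole counts were recovered from the joint table: 35558086 of 35558086 nonzero values came out whole within 0.001. Another 3008 of its columns repeated other columns exactly and were dropped. The tables list 16157 and 32285 genes and differ in software, so a table is a batch, and it was the block in every main test.

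Cells needed 500 genes, 1000 UMIs and at most 20% mitochondrial UMIs. In library 1 the last limit removed 255 cells, and 0 cells exceeded it in the joint table. Non-endocrine classes needed at least 3 markers and 2 more than any other list. Summed levels plus 0.05 were tested on the log2 scale with limma 3.58.1 (R 4.3.3), for genes at 0.1 or more in at least 2 of 14 class columns, with 6 residual degrees of freedom and columns centred on their median gene. The threshold was a Benjamini-Hochberg adjusted p under 0.05. Alternatives used edgeR 4.0.16, DESeq2 1.42.0, other constants, filters, totals and cell limits, and no block. The comparisons with PP cells, a fit of endocrine classes alone and a pooling of cells with Ppy beside another hormone were added after seeing the data. Counting intervals, thinning and figures were made in Python 3.11.15.

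In simulated data for beta against alpha cells over 10463 genes, 50% of changes of 1 and 98% of changes of 2 on the log2 scale were recovered, with 0% false among the calls. Differences near 1 could thus be missed. Nothing says that the samples were prepared independently. With the table as block, p-values measure how far differences between classes disagreed between the 2 tables. For each gene that spread was pooled over all classes in the fit, so it is not the spread of the 2 classes compared alone. Slc30a8 thus has the same SE of 0.57 in every comparison of 2 endocrine classes. Members and gene lists were chosen with earlier results of these data known. The genes named are the 9 members, up to 4 called genes per comparison from the list of other zinc genes, up to 2 examples from each companion list, and the 5 genes most like Slc30a8 and Mt1. Beside this rule Txnip was chosen after its values were seen.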

Additional observations from a re-analysis of the deposited data

How the results depend on the processing

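Of the values recomputed under other settings, 1181 kept their direction and their side of the threshold. Another 41 lost a call, 22 gained one and 28 reversed direction. The 28 reversals listed here were all of members not called in that comparison, and the causes were not tested. The 3 members higher in beta than in delta cells stayed called under all 16 alternatives. Counts of members called moved as follows, each from 1 called for beta against alpha, alpha against delta, beta against PP and delta against PP, from 2 in myeloid cells, from 4 in stromal cells and from 0 for alpha against PP.

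With 0.5 added, beta against alpha gave 2 and alpha against PP 1, and Slc30a5 turned to -0.0018 for alpha against delta. With 0.01 added, 0 were called for beta against alpha, alpha against delta, beta against PP and delta against PP, 1 in myeloid cells, and Slc30a1 in stromal cells turned to 0.076. Without the filter on low levels, delta against PP gave 0 and Slc30a5 turned to -0.037 (alpha against delta). With all UMIs as the total, beta against alpha and delta against PP gave 0 and myeloid cells 1, Slc30a5 turned to -0.048 (alpha against delta) and Slc39a6 to -0.0044 (alpha against PP). Averaging cells equally gave 2 in stromal cells and 0 for delta against PP, with Slc30a7 at -0.38 in stromal cells.

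Without centring, Slc30a5 turned to -0.12 (alpha against delta), -0.0058 (myeloid) and 0.14 (beta against PP), Slc30a7 to -0.12 (myeloid) and -0.015 (stromal), and Slc30a8 to 0.078 (delta against PP). The uncentred median gene lay at -0.46 in myeloid and -0.14 in stromal cells, and at 0.18, 0.15 and 0.21 for beta, alpha and delta against PP. Genes called higher and lower changed from 323 and 319 to 224 and 397 for alpha against delta, and from 3158 and 3132 to 2079 and 5077 in myeloid cells. Against PP they changed from 408 and 427 to 794 and 273 for beta, from 76 and 64 to 125 and 38 for alpha, and from 167 and 154 to 436 and 74 for delta cells.

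With edgeR and TMM, beta against alpha gave 2 and alpha against PP 1. Slc30a5 turned to -0.077 (alpha against delta) and 0.082 (beta against PP), Slc30a7 to -0.038 (endothelial) and Slc39a6 to 0.013 (stromal). With edgeR and the DESeq2 size factors the counts were also 2 and 1, with Slc30a5 at -0.14 (alpha against delta) and Slc39a6 at 0.11 (stromal). DESeq2 gave 1 in myeloid cells and 0 for delta against PP, with Slc30a5 at -0.13 and Slc39a6 at 0.092 in the same comparisons. With no replicate block, so without pairing the classes of a table, 0 were called for beta against alpha, alpha against delta and delta against PP and 1 in myeloid cells, and the endothelial and stromal calls of Slc30a5 were lost.

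Raised hormone limits gave 0 for delta against PP, with Slc30a5 at -0.091 (alpha against delta) and Slc30a1 at -0.20 (beta against PP). Lowered limits gave 1 in myeloid cells, 1 for alpha against PP and 0 for delta against PP, with Slc30a7 at -0.051 (stromal) and Slc39a6 at -0.078 (alpha against PP). A mitochondrial limit of 10% gave 0 for beta against alpha and 1 for alpha against PP, with Slc30a5 at -0.039 (alpha against delta). Without the 5% of cells richest in UMIs, beta against alpha, alpha against delta and delta against PP gave 0 and stromal cells 2, with Slc30a7 at -0.11 (stromal). Adding the cells with Ppy and another hormone put Slc39a6 at -0.031 (alpha against PP). With endocrine classes alone, 3 were called for beta against alpha and for alpha against delta and 2 in each comparison with PP, with Slc30a5 at -0.021 (alpha against delta).

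Genes called over all those tested ranged from 774 to 2566 for beta against alpha (1093 in the main analysis), 645 to 1691 for beta against delta (979), 430 to 1111 for alpha against delta (642), 523 to 1633 for beta against PP (835), 58 to 329 for alpha against PP (140) and 194 to 785 for delta against PP (321). Leaving out either table leaves 1 value per class and no test. Library 1 held 25 delta and 18 PP cells, which limits every comparison with them.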
